A study of Mus musculus with 12 samples.

Results

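Serum amyloid and related acute phase genes were followed across 4 treatment groups in RNA from samples that the series title calls mouse liver tumour. The set holds 9 named genes out of 21878 in the count table: the serum amyloid A genes Saa1, Saa2, Saa3 and Saa4, and Lcn2, Hp, Orm1, Orm2 and Apcs. They were taken by symbol from the count and FPKM tables (FPKM is a level corrected for transcript length and library size). All 9 passed the filter on low counts that left 14330 genes to test. The list was chosen by the large differences of Saa2 and Saa3 between anti-PD-1 and untreated libraries in earlier results of these data, so that contrast is given here as a description with no test.

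The 12 libraries carry the cell line label Hepa1-6, a mouse hepatoma line, and the tissue label liver. There were 3 libraries of mIFNalpha combined with an anti-PD-1 antibody (the combination), 3 of anti-PD-1 antibody alone, 3 of mIFNalpha (mouse interferon alpha) alone and 3 untreated. PD-1 is an inhibitory receptor of T cells, and interferon alpha is an antiviral cytokine that acts on nearly all nucleated cells. The labels give no dose, time, strain, age or host, and do not say whether the replicates of a group came from separate animals or cultures, so p-values measure only the spread between these libraries. Libraries held 31317989 to 38536732 counts.

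The acute phase response is the shift in plasma protein synthesis that follows infection, injury or inflammation. Interleukin 6, interleukin 1 and tumour necrosis factor drive it in hepatocytes, through STAT3, C/EBP and NF-kB factors. Saa1 and Saa2 encode the apolipoproteins that ride on high density lipoprotein during that response, and are among its steepest responders in mouse liver. Saa3 is made in the mouse largely outside hepatocytes, by macrophages and adipocytes among others, and Saa4 is known from human as the constitutive serum amyloid A. Lcn2 encodes lipocalin 2, which binds bacterial siderophores and is also stored in neutrophil granules. Hp encodes haptoglobin, which binds free haemoglobin. Orm1 and Orm2 encode orosomucoids, plasma proteins that carry lipophilic compounds, and Apcs encodes serum amyloid P, the main acute phase pentraxin of the mouse.

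The 4 serum amyloid A genes lie together on chromosome 7 (GRCm38, GENCODE M21), within 42.3 kb. Saa3 is at chr7:46711998-46715700, Saa4 at chr7:46727998-46732603 and Saa1 at chr7:46740497-46742980, all on the minus strand. Saa2 is on the plus strand at chr7:46751790-46754313, so Saa1 and Saa2 point away from each other, with starts 8.81 kb apart. Their transcripts were 94.4% identical over 606 aligned bases, against 69.6% for Saa1 and Saa3, and reads of Saa1 and Saa2 may have been shared between them; their separate values are uncertain. Orm1 (chr4:63344560-63348163) and Orm2 (chr4:63362449-63365878) lie within 21.3 kb on the plus strand of chromosome 4, and their transcripts were 91.0% identical, which leaves the same doubt. Lcn2 is at chr2:32384633-32388252, Hp at chr8:109575128-109579172 and Apcs at chr1:172893961-172895041, all on the minus strand.

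Saa1 and Saa2 had the most similar profiles of any 2 of the genes, so the 250 bases before their RefSeq starts are printed (GRCm38.p6, in the direction of the gene), with those of Saa3, which behaved differently, and of Orm2. Capitals mark every exact match to the C/EBP motif TTGCNNAA on either strand.
Saa1, chr7:46742981-46743230, minus strand: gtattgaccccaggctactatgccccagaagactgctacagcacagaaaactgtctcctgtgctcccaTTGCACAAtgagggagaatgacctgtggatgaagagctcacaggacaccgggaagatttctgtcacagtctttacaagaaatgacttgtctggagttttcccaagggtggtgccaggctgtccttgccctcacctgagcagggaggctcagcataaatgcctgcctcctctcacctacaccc
Saa2, chr7:46751583-46751832, plus strand: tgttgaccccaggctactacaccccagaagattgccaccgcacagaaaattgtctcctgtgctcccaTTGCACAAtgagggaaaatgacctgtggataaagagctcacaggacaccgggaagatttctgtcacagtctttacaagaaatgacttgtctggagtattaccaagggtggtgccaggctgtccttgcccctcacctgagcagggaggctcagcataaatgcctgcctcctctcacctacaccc
Saa3, chr7:46715677-46715926, minus strand: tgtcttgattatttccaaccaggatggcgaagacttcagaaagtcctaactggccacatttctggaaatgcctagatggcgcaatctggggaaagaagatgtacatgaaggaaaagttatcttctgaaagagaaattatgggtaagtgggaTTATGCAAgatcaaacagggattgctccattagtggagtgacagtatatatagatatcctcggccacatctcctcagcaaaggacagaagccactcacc
Orm2, chr4:63362199-63362448, plus strand: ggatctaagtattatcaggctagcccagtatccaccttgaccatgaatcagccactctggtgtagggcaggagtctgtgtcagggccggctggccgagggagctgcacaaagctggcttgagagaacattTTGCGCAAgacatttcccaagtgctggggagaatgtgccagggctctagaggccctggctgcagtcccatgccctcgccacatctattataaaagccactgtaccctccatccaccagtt

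The Saa1 and Saa2 windows were identical at 238 of 249 aligned bases (95.6%), and each held TTGCACAA on the gene's own strand, 182 to 175 bases before the start of Saa1 and 183 to 176 before that of Saa2. The Saa1 and Saa3 windows were 59.4% identical. The Saa3 match lay on the opposite strand, 99 to 92 bases before the start, and the Orm2 match, TTGCGCAA, lay 120 to 113 bases before it. Windows were found for 7 of the 9 genes, of which 6 held the C/EBP motif, against 9.55% of all 27025 mouse windows of that length. Saa1 and Saa2 hold the same letters in near-identical windows, so theirs are not separate matches. The Lcn2 window lies inside the gene as GENCODE places it. The STAT motif TTCNNNGAA was found in 1 of the 7, that of Apcs, against 7.18% of all windows. The consensus NF-kB motif was in 0 of the 7, against 7.01% of all windows. These are letter matches in 1 window, and the motifs were searched without allowing mismatches.

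Within 3 of the groups, 1 library stood apart for most of the genes. Combination replicate 1 was the highest of its group for 9 of the 9 genes, anti-PD-1 replicate 3 for 9 of 9, and mIFNalpha replicate 1 for 8 of 9, all but Saa3. For Saa1, Saa2 and Orm2 the mIFNalpha libraries lay close together, the highest at 1.28, 1.15 and 1.05 times the lowest. Together the 9 genes took 0.495%, 0.242% and 0.224% of all counts in combination replicates 1 to 3, and 0.140%, 0.149% and 0.732% in the anti-PD-1 replicates. They took 0.167%, 0.0650% and 0.0708% in the mIFNalpha replicates and 0.0398%, 0.0473% and 0.0657% in the untreated ones. The summed level of 17 adult hepatocyte markers was highest in the same libraries. It was 2638, 596 and 1019 CPM (counts scaled to the size of the library) in combination replicates 1 to 3, 1126, 524 and 4496 CPM in anti-PD-1, 2356, 572 and 529 CPM in mIFNalpha, and 389, 473 and 793 CPM in untreated libraries. The tests of combination over untreated and over mIFNalpha were therefore also run with these 3 libraries left out together, an alternative added after the values were seen; since the libraries were picked for their high levels, its p-values are too small.

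**Figure D1:**
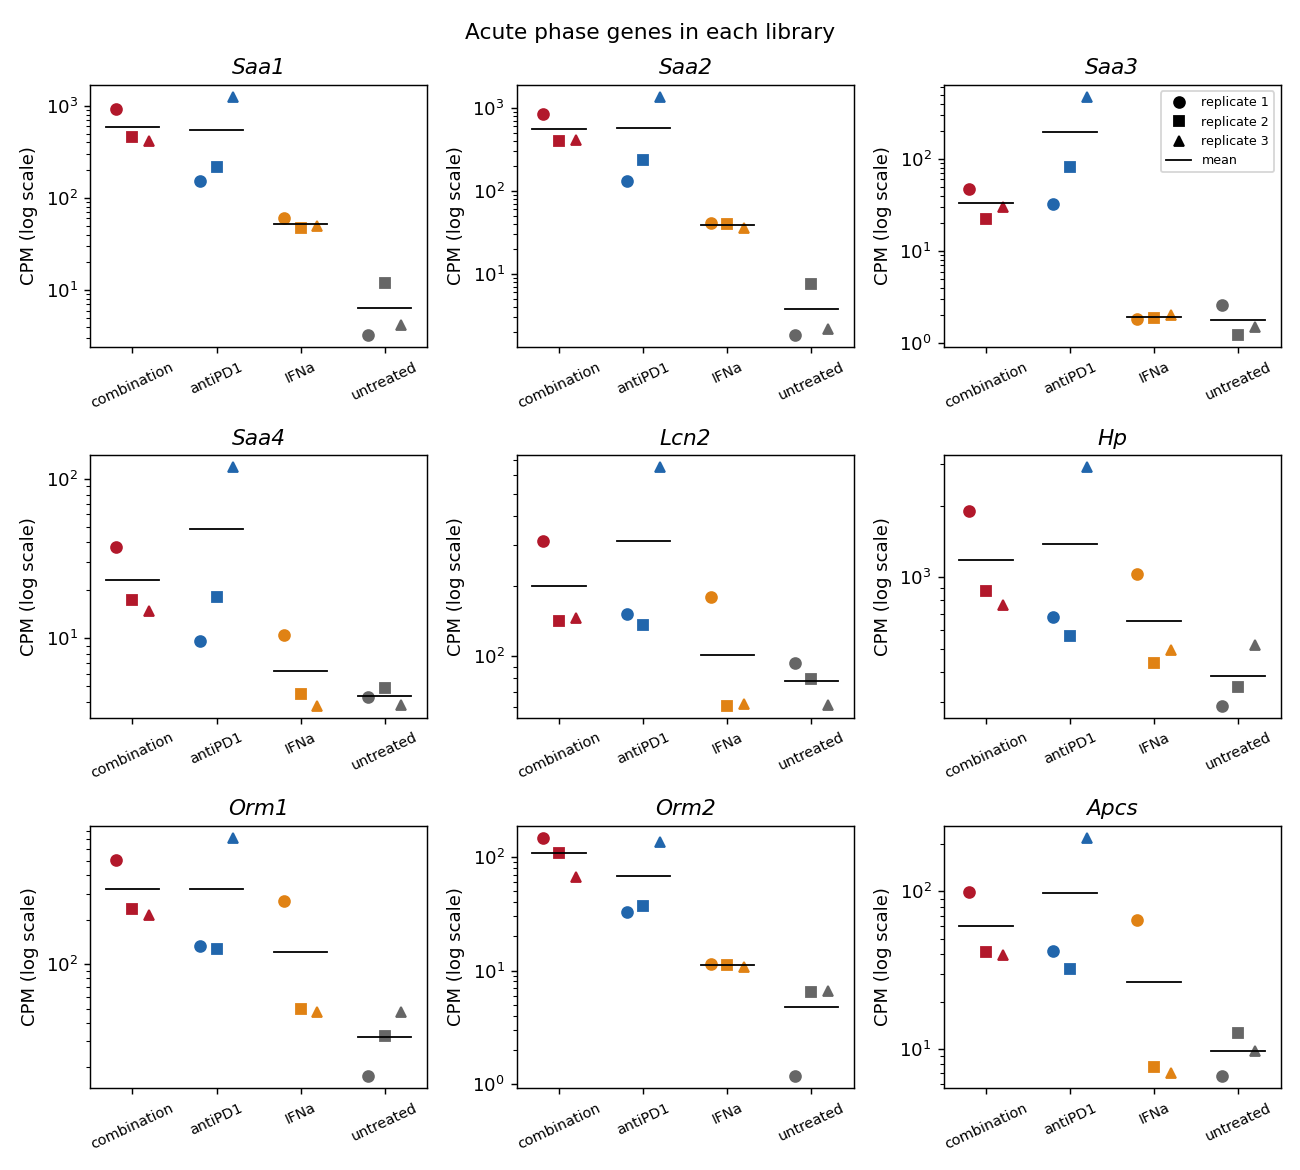
CPM of each gene (log scale) in every library, with the group mean as a line; groups run from combination over anti-PD-1 (antiPD1) and mIFNalpha (IFNa) to untreated. Every combination and anti-PD-1 library lies above every untreated library for each of the 9 genes, and anti-PD-1 replicate 3 is the highest of the 12 libraries for all of them but Orm2.

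Saa1 and Saa2 rose in the combination libraries by about as much as each other. Saa1 had 914, 455 and 414 CPM in combination replicates 1 to 3, against 3.24, 11.8 and 4.22 CPM in untreated libraries. Saa2 had 856, 398 and 410 CPM in combination libraries, against 1.82, 7.45 and 2.14 CPM in untreated libraries. The lowest combination library lay far above the highest untreated one for both. The log2 fold change of combination over untreated was 6.54 ± 0.92 (SE, n = 3 each) for Saa1 and 7.195 ± 1.01 for Saa2, with an adjusted p of 0.00861 for both (edgeR quasi-likelihood test, Benjamini-Hochberg adjustment over all genes tested). With the 3 libraries left out, the log2 fold changes were 6.11 and 6.77, with adjusted p of 0.00254 for both.

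Under mIFNalpha alone Saa1 and Saa2 lay between the untreated and the combination libraries, with little spread. Saa1 had 60.4, 47.4 and 49.4 CPM in mIFNalpha replicates 1 to 3, and Saa2 had 41.3, 39.9 and 36.0 CPM. Each of these libraries was above all untreated and below all combination libraries, and mIFNalpha replicate 1 did not stand apart for Saa2. The log2 fold change of mIFNalpha over untreated was 3.03 ± 0.79 for Saa1 and 3.37 ± 0.87 for Saa2, and neither passed the edgeR test after Benjamini-Hochberg adjustment (adjusted p = 0.772 and 0.749). That of combination over mIFNalpha was 3.50 ± 0.79 for Saa1 and 3.83 ± 0.85 for Saa2, with adjusted p of 0.0643 and 0.0613. With the 3 libraries left out, the values of combination over mIFNalpha were 3.15 and 3.40 (edgeR adjusted p = 0.0380 and 0.0388). The choice of libraries makes these p-values too small. Those of mIFNalpha over untreated were 2.96 and 3.37 and did not pass (adjusted p = 0.196 for both).

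Under anti-PD-1 alone the same 2 genes had means near those of the combination, with a wider spread. Anti-PD-1 replicates 1 and 2 lay below every combination library for both genes, and replicate 3 above every one. Saa1 had 154, 216 and 1249 CPM in anti-PD-1 replicates 1 to 3, and Saa2 had 133, 238 and 1366 CPM. Every anti-PD-1 library was above every mIFNalpha and every untreated library, and the anti-PD-1 range spanned the whole combination range. The log2 difference of combination over anti-PD-1 was 0.14 ± 0.72 for Saa1 and -0.06 ± 0.76 for Saa2. Without anti-PD-1 replicate 3 these differences were 1.67 and 1.57, so 1 library decides whether the combination is set above or level with anti-PD-1 alone. All combination libraries lay above all anti-PD-1 libraries for none of the 9 genes, against 7.49% of all genes.

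Saa3 differed from Saa1 and Saa2 under mIFNalpha. It had 47.7, 22.4 and 29.9 CPM in combination replicates 1 to 3, 32.4, 81.8 and 474 CPM in anti-PD-1, 1.83, 1.86 and 2.02 CPM in mIFNalpha, and 2.63, 1.22 and 1.497 CPM in untreated libraries. The mIFNalpha libraries lay inside the untreated range, whereas for Saa1 and Saa2 they lay wholly above it. The log2 fold change of mIFNalpha over untreated was 0.10 ± 0.89 (edgeR adjusted p = 0.990), and leaving out untreated replicate 2 or 3 turned its sign. Saa3 rose in the combination over untreated by 4.22 ± 0.88 on the log2 scale (edgeR adjusted p = 0.0208), and over mIFNalpha the log2 fold change was 4.13 ± 0.87 (adjusted p = 0.0552). With the 3 libraries left out, Saa3 was at 3.89 over untreated (edgeR adjusted p = 0.00352) and 3.73 over mIFNalpha (adjusted p = 0.0257). The choice of libraries makes both p-values too small. Its anti-PD-1 mean was 196 ± 242 CPM (SD, n = 3), against 33.4 ± 13.0 CPM in the combination; the log2 difference of combination over anti-PD-1 was -2.55 ± 0.77, and -0.79 without anti-PD-1 replicate 3.

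The ratio of Saa3 to Saa1 within a library, taken on FPKM so that gene length drops out, separated the groups further. It was 0.0932, 0.0909 and 0.124 in combination replicates 1 to 3 and 0.0597, 0.0699 and 0.0908 in mIFNalpha libraries, against 0.383, 0.692 and 0.694 in anti-PD-1 libraries. Untreated libraries gave 1.51, 0.208 and 0.6005 at low levels of both genes. All 6 libraries that had received mIFNalpha, alone or combined, had a lower ratio than all 6 that had not, and this order was noticed in the values, so no test is given. The ratio of Saa2 to Saa1 was 1.04, 0.955 and 1.06 in combination libraries and 0.972, 1.23 and 1.16 in anti-PD-1 libraries. It was 0.811, 0.926 and 0.815 in mIFNalpha libraries and 0.563, 0.730 and 0.583 in untreated libraries, so the 3 untreated libraries lay below the other 9. With reads shared between the 2 genes, this second ratio also depends on how they were assigned.

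**Figure D2:**
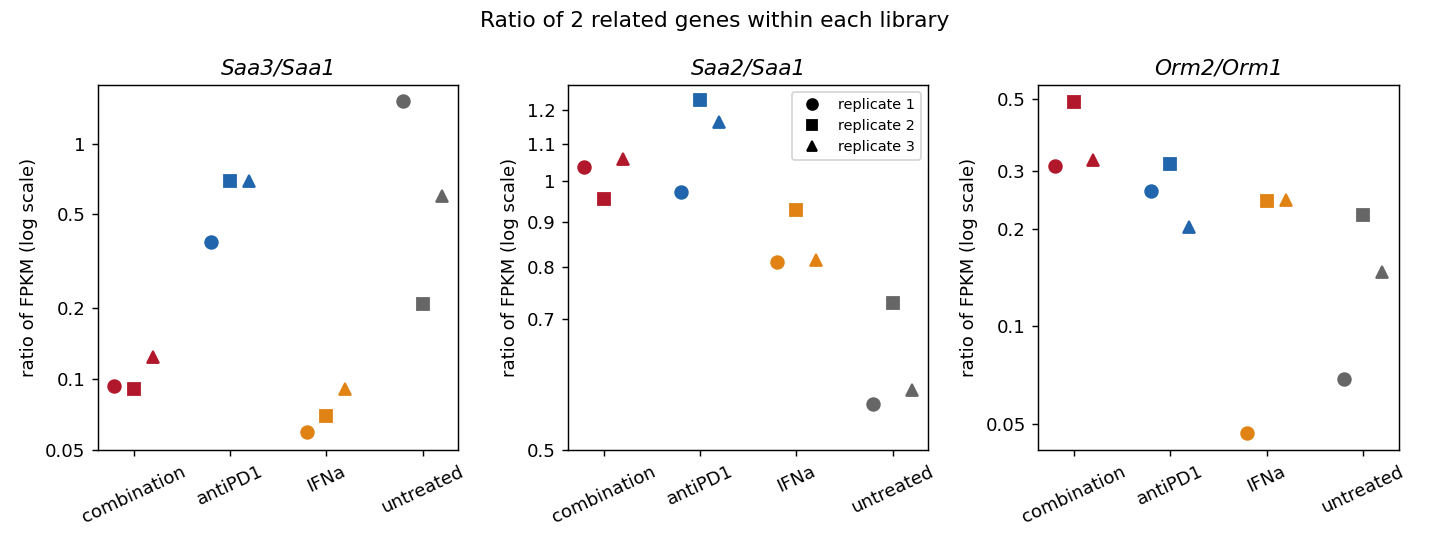
Ratio of FPKM between related genes (log scale) in each library, by group, with marker shapes for the replicates. The Saa3 to Saa1 ratio lies at or below 0.124 in all combination and mIFNalpha (IFNa) libraries and at or above 0.208 in all anti-PD-1 (antiPD1) and untreated libraries; Orm2 to Orm1 is lowest in mIFNalpha replicate 1.

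Saa4 was the least abundant serum amyloid A gene by FPKM in all 4 groups. It had 37.6, 17.5 and 14.8 CPM in combination libraries, 9.66, 18.1 and 119 CPM in anti-PD-1, 10.6, 4.49 and 3.77 CPM in mIFNalpha, and 4.28, 4.88 and 3.79 CPM in untreated libraries. Combination and untreated libraries did not overlap, while mIFNalpha libraries overlapped the untreated ones. The log2 fold change of combination over untreated, 2.43 ± 0.83, did not pass the edgeR test (adjusted p = 0.0770). With the 3 libraries left out it was 1.92 (adjusted p = 0.00350, too small through the choice of libraries).

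The orosomucoid genes rose in the combination. Orm1 had 507, 237 and 216 CPM in combination replicates 1 to 3, 133, 126 and 714 CPM in anti-PD-1, 266, 50.02 and 47.2 CPM in mIFNalpha, and 17.4, 32.6 and 47.1 CPM in untreated libraries. The 2 lower mIFNalpha libraries sat just above the highest untreated one, and the third was above 2 of the 3 combination libraries. Orm1 rose by 3.30 ± 0.89 on the log2 scale in combination over untreated (edgeR adjusted p = 0.0393), and by 2.82 with the 3 libraries left out (adjusted p = 0.00426). The mIFNalpha over untreated value was 1.90 ± 0.85 (adjusted p = 0.885), and 0.59 without mIFNalpha replicate 1.

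Orm2 showed a different pattern from its neighbour under mIFNalpha. It had 148, 109 and 66.3 CPM in combination libraries, 32.7, 37.1 and 135 CPM in anti-PD-1, 11.4, 11.3 and 10.8 CPM in mIFNalpha, and 1.17, 6.43 and 6.57 CPM in untreated libraries. The mIFNalpha libraries were nearly equal and lay between the untreated and the combination ranges, as they did for Saa1 and Saa2. Orm2 rose in combination over untreated by 4.51 ± 0.71 on the log2 scale (edgeR adjusted p = 0.0116). Over mIFNalpha, the log2 fold change of the combination was 3.27 ± 0.67 (adjusted p = 0.0517), and over anti-PD-1 the difference was 0.66 ± 0.61. With the 3 libraries left out, the value over untreated was 4.22 (adjusted p = 0.00521) and that over mIFNalpha 2.97 (adjusted p = 0.0589). The ratio of Orm2 to Orm1 was 0.311, 0.491 and 0.325 in combination, 0.260, 0.316 and 0.202 in anti-PD-1, 0.0469, 0.243 and 0.245 in mIFNalpha, and 0.0689, 0.221 and 0.147 in untreated libraries. The combination had the 2 highest of the 12 ratios, and the lowest was that of mIFNalpha replicate 1, the library with the high hepatocyte markers. Orm3, between them on chromosome 4, averaged 2.04 CPM in combination libraries and 0.414 CPM in untreated ones.

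Hp, Lcn2 and Apcs did not pass the test of combination over untreated. Hp had 1892, 878 and 764 CPM in combination libraries, 684, 570 and 2895 CPM in anti-PD-1, 1030, 435 and 496 CPM in mIFNalpha, and 289, 345 and 518 CPM in untreated libraries. Combination and untreated libraries did not overlap, and the log2 fold change was 1.62 ± 0.63 (edgeR adjusted p = 0.107). For Lcn2 the levels were 313, 142 and 146 CPM in combination libraries, 151, 135 and 649 CPM in anti-PD-1, 178, 61.0 and 62.3 CPM in mIFNalpha, and 92.9, 79.2 and 61.2 CPM in untreated libraries.

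Lcn2 in the 2 lower mIFNalpha libraries was at the level of the lowest untreated one, and the log2 fold change of combination over untreated was 1.36 ± 0.64 (edgeR adjusted p = 0.167). Apcs had 99.0, 40.9 and 39.6 CPM in combination libraries, 42.0, 32.4 and 218 CPM in anti-PD-1, 65.3, 7.66 and 7.02 CPM in mIFNalpha, and 6.71, 12.6 and 9.71 CPM in untreated libraries. Its combination over untreated log2 fold change was 2.63 ± 0.98 (adjusted p = 0.0957). Without mIFNalpha replicate 1, the mIFNalpha over untreated values of Lcn2 and Apcs, 0.37 and 1.46 over all libraries, were -0.34 and -0.40. With the 3 high libraries left out, the combination over untreated values of Hp, Lcn2 and Apcs were 1.11, 0.90 and 2.07 (edgeR adjusted p = 0.0159, 0.00541 and 0.00254). Since those libraries were picked for high levels of these genes, the p-values are too small and are not counted as calls.

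Counted over the set, 5 of the 9 genes rose in combination over untreated, against 7.58% of all genes tested in that direction and 12.6% in either. These were Saa1, Saa2, Saa3, Orm1 and Orm2. The untreated libraries also entered the contrast that drew the list, so this count and its p-values are not independent of that choice. The median log2 fold change of the 9 was 3.30, beside -0.01 over all genes. The 3 combination libraries were above the 3 untreated ones for 9 of 9 genes, against 24.7% of all genes. The calls of Saa1, Saa2 and Orm2 held when each of the 3 untreated and the 3 combination libraries was left out in turn; those of Saa3 and Orm1 were lost without untreated replicate 1 or 2 or any 1 combination library, with adjusted p of 0.0532 to 0.0954 for Saa3 and 0.0715 to 0.152 for Orm1.

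In mIFNalpha over untreated, 0 of 9 genes passed, as did 0% of all genes; the edgeR test without adjustment gave p below 0.05 for 3 of the 9, and for 5.59% of all genes. DESeq2 called 37 genes there, none of them in the set. For 4 of the 9 (Saa1, Saa2, Orm1 and Orm2) all mIFNalpha libraries lay above all untreated ones, against 4.96% of all genes. The median log2 fold change was 1.24. In combination over mIFNalpha, 0 of 9 passed the edgeR test, against 0.956% of all genes in either direction and 0.342% in that of a rise. DESeq2 called Saa1, Saa2, Saa3 and Orm2 there, among 1661 genes in all. The edgeR test without adjustment gave p below 0.05 for 5 of the 9, and for 23.1% of all genes. For 5 of the 9 (the serum amyloid A genes and Orm2) the groups did not overlap, against 20.3% of all genes, and the median was 1.89. With the 3 high libraries left out, 7 of the 9 passed in combination over mIFNalpha, as did 302 of all genes. Those libraries were picked because most of these 9 genes were high in them, which makes the p-values of the 9 too small. In mIFNalpha replicate 1, Saa3 was not the highest of its group, and Saa1, Saa2 and Orm2 were only slightly so.

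The anti-PD-1 libraries were above the untreated ones for 9 of 9 genes, against 17.5% of all genes, in the contrast that drew the list. The fitted log2 fold changes were 6.40 ± 0.92 for Saa1, 7.26 ± 1.01 for Saa2, 6.78 ± 0.97 for Saa3 and 3.50 ± 0.87 for Saa4. They were 3.85 ± 0.69 for Orm2, 3.33 ± 1.002 for Apcs, 3.32 ± 0.89 for Orm1, 2.004 ± 0.65 for Lcn2 and 1.85 ± 0.63 for Hp. The median, 3.50, was 2.01 without anti-PD-1 replicate 3. This contrast shares the untreated libraries with combination over untreated and with mIFNalpha over untreated. The values and p-values of those comparisons are therefore not independent of the choice of the list. The difference between the effect of mIFNalpha with and without anti-PD-1, on the log2 scale, was negative for all 9 genes and ranged from -0.58 ± 0.88 for Orm2 to -3.43 ± 1.13 for Saa2. Its median of -1.92 was 0.082 with the 3 high libraries left out.

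**Figure D3:**
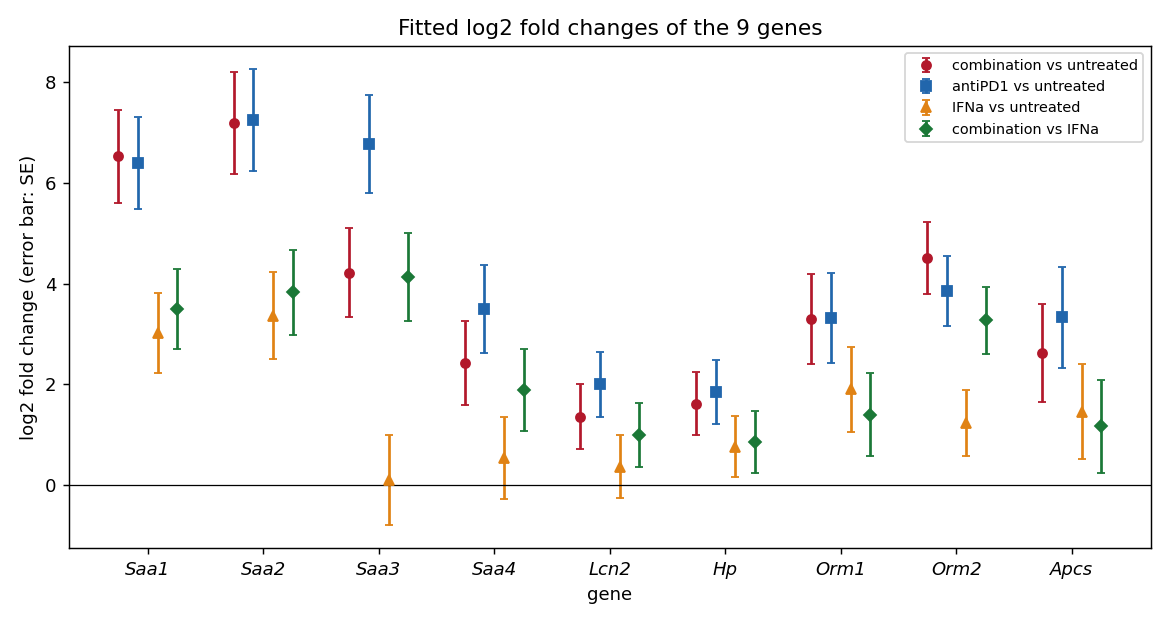
Log2 fold change of each gene in 4 comparisons, with bars for its SE from the fit over all 12 libraries. Saa1 and Saa2 have the largest values in combination over untreated, and Saa1, Saa2 and Saa3 in anti-PD-1 (antiPD1) over untreated; Saa3 is at 0.10 in mIFNalpha (IFNa) over untreated while Saa1 and Saa2 are at 3.03 and 3.37.

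By length-corrected level, Hp was the most abundant of the set in every group, at a mean of 660 ± 335 FPKM in combination, 727 ± 672 in anti-PD-1, 346 ± 160 in mIFNalpha and 204 ± 71.6 in untreated libraries (SD, n = 3 each). The order below it differed between groups. In combination libraries Saa2 (469 ± 208 FPKM) and Saa1 (460 ± 195 FPKM) came next and did not differ beyond their spread, followed by Orm1 (340 ± 167 FPKM). Lcn2 came second in untreated libraries, at 58.5 ± 13.0 FPKM, followed by Orm1 at 31.4 ± 15.2 FPKM, while Saa1 and Saa2 were at 4.52 ± 2.89 and 3.01 ± 2.37 FPKM. Under mIFNalpha, Orm1 (119 ± 121 FPKM) and Lcn2 (74.5 ± 44.6 FPKM) had higher means than Saa1 (37.1 ± 2.79 FPKM) and Saa2 (31.4 ± 1.08 FPKM), and Orm1 and Lcn2 did not differ beyond their spread.

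The serum amyloid A genes made up 41.3%, 42.2% and 44.4% of the summed FPKM of the 9 genes in combination replicates 1 to 3, and 27.8%, 43.2% and 47.6% in anti-PD-1. They made up 7.31%, 16.6% and 15.4% in mIFNalpha and 3.49%, 5.57% and 1.98% in untreated libraries, so neither of those groups overlapped the combination. This share in combination replicate 1 was no higher than in the other 2 combination libraries, although its levels were the highest of the group. The FPKM ratio of Saa1 to Hp was 0.655, 0.741 and 0.750 in combination, 0.305, 0.511 and 0.624 in anti-PD-1, 0.0752, 0.148 and 0.133 in mIFNalpha, and 0.0168, 0.0452 and 0.0111 in untreated libraries. Its groups did not overlap in any pair.

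Several cell type markers moved with these genes, and their counts are to be read against the 7.58% of all genes that rose in combination over untreated. These are bulk libraries, in which more cells of a type and more RNA per cell cannot be told apart. Of 17 adult hepatocyte markers, 1 (the transporter Slco1a1) rose in combination over untreated, with a median log2 fold change of 1.55. Of 14 macrophage markers 8 rose, with a median of 1.70, among them Ctss (2.21 ± 0.57, edgeR adjusted p = 0.0353) and C1qa (1.70 ± 0.48, adjusted p = 0.0431). Their sum was 2615, 2033 and 2314 CPM in combination replicates 1 to 3, 1585, 1540 and 6494 CPM in anti-PD-1, 550, 854 and 910 CPM in mIFNalpha, and 525, 471 and 820 CPM in untreated libraries. Of 13 neutrophil markers 9 rose, with a median of 2.37; their sum ranged from 167 to 279 CPM in combination, 128 to 249 in anti-PD-1, 63.7 to 107 in mIFNalpha and 37.9 to 63.5 in untreated libraries.

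Of 6 T cell markers 3 rose, with sums of 64.9 to 81.3 CPM in combination, 38.7 to 197 in anti-PD-1, 9.19 to 31.3 in mIFNalpha and 18.1 to 20.0 in untreated libraries. None of 7 fibroblast markers passed the test, and their sums overlapped, at 1483 to 1828 CPM in combination and 438 to 1638 CPM in untreated libraries. Of the adipocyte markers, Lep was at 0 in all 12 libraries, and 3 to 5 of the 9 were at 0 in each. The others were counted, led by Pck1, which is also on the hepatocyte list, and Fabp4. The adipocyte sums were 78.3 to 115 CPM in combination, 44.7 to 257 in anti-PD-1, 91.5 to 240 in mIFNalpha and 46.8 to 99.7 in untreated libraries. None of the 4 tested passed in combination over untreated. The hepatoma markers, led by Afp, summed to 6775 to 8167 CPM in combination, 7503 to 9803 in anti-PD-1, 9482 to 12922 in mIFNalpha and 11628 to 12718 in untreated libraries; Afp and the hepatocyte factor Hnf4a fell in combination over untreated. Acinar markers of the pancreas summed to 15.5 to 91.8 CPM over all libraries, and none of the 8 tested passed in combination over untreated. Immune and stromal markers were thus present in libraries that carry a cell line label, and the part of these cell types in the results was not tested.

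The correlation with each marker sum over the 12 libraries, which share group and library differences, is given as a description. With the hepatocyte sum, Pearson's r on the log2 scale was 0.924 for Hp, 0.867 for Apcs, 0.856 for Lcn2, 0.848 for Orm1 and 0.773 for Saa4, against 0.616 for Saa1, 0.602 for Orm2, 0.598 for Saa2 and 0.556 for Saa3. Saa3 had its highest r, 0.928, with the macrophage sum, followed by 0.914 with the T cell sum. By rank this order was reversed, with a Spearman rho of 0.832 for the macrophage sum and 0.902 for the T cell sum. Orm2, Orm1, Saa1 and Saa2 had their highest r, 0.946, 0.926, 0.924 and 0.915, with the neutrophil sum, with which Apcs had 0.855 and Hp 0.835. Saa4 had its highest r, 0.883, with the macrophage sum, but its rho was 0.720 there and 0.804 with the neutrophil sum. Across the 3 mIFNalpha libraries, whose hepatocyte sums spanned 529 to 2356 CPM, the ratio of the highest to the lowest CPM was 9.30 for Apcs, 5.63 for Orm1, 2.93 for Lcn2, 2.80 for Saa4 and 2.37 for Hp. Over the same libraries it was 1.28 for Saa1, 1.15 for Saa2, 1.101 for Saa3 and 1.05 for Orm2. Among the 9 genes, Saa1 and Saa2 varied together most closely (r = 0.999, Spearman rho = 0.986), and Lcn2 and Orm2 least (r = 0.717, rho = 0.741).

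**Figure D4:**
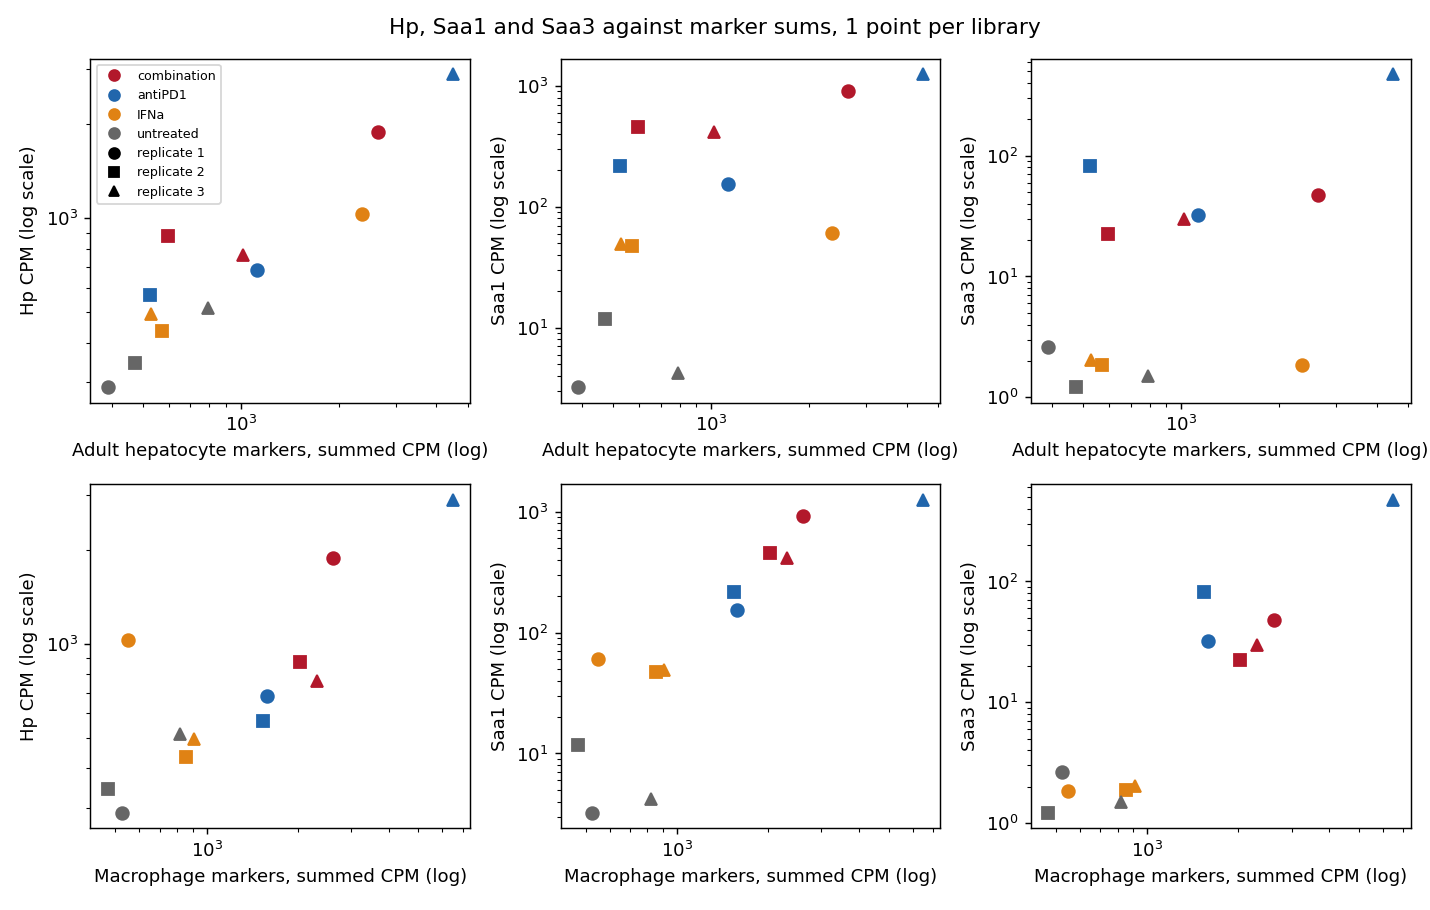
CPM of Hp, Saa1 and Saa3 (log scale) against the summed CPM of adult hepatocyte and of macrophage markers (log scale), 1 point per library, coloured by group (antiPD1, anti-PD-1; IFNa, mIFNalpha). Over the 12 libraries Hp has an r of 0.924 with the hepatocyte sum, and Saa3 has its r of 0.928 with the macrophage sum; mIFNalpha replicate 1 lies far right on the hepatocyte axis with Saa1 and Saa3 at the level of its group.

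Of 27 other positive acute phase genes, 1 rose and 0 fell in combination over untreated, beside 7.58% of all genes that rose, with a median log2 fold change of 0.72. The gene was Itih4, an inter-alpha-trypsin inhibitor heavy chain, at 404 ± 342 CPM in combination and 40.8 ± 19.9 CPM in untreated libraries (log2 fold change 3.31 ± 0.90, edgeR adjusted p = 0.0401). Serpina3k, Serpina3n, Crp and Lrg1 had log2 fold changes of 3.01, 2.64, 2.45 and 2.08, above those of Hp and Lcn2, and did not pass (adjusted p of 0.0751 to 0.119). The most abundant of the list, the fibrinogen chain Fgb, averaged 2613 ± 443 CPM in combination and 4248 ± 342 CPM in untreated libraries (-0.70 ± 0.24, adjusted p = 0.0758). The chain Fga averaged 931 ± 537 CPM in combination and 1478 ± 287 CPM in untreated libraries, and Fgg averaged 1025 ± 393 CPM in combination and 1583 ± 126 CPM in untreated libraries. The haem carrier Hpx averaged 1836 ± 893 CPM in combination and 1027 ± 140 CPM in untreated libraries. The 3 chains of fibrinogen, an acute phase protein itself, thus had lower means in the combination, and none passed the test.

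Of 12 genes that the acute phase response is known to lower, 0 passed the test in either direction, beside 12.6% of all genes, with a median of 0.49; a list this short says little at that share. Albumin (Alb) averaged 8568 ± 2241 CPM in combination and 10863 ± 820 CPM in untreated libraries. Transferrin (Trf) averaged 8052 ± 1030 CPM in combination and 11219 ± 919 CPM in untreated libraries, and the retinol carrier Rbp4 1779 ± 43.8 CPM in combination and 2326 ± 341 CPM in untreated libraries. Fetuin (Ahsg) averaged 544 ± 394 CPM in combination and 443 ± 45.7 CPM in untreated libraries.

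Of the cytokines and receptors that drive the response, 16 of 18 could be tested and 2 rose in combination over untreated, beside 7.58% of all genes. Tnf, which encodes tumour necrosis factor, had 3.11 ± 1.30 CPM in combination and 0.715 ± 0.456 CPM in untreated libraries (2.11 ± 0.46 on the log2 scale, edgeR adjusted p = 0.0231). Il6st, the gp130 chain of the interleukin 6 receptor, had 133 ± 4.39 CPM in combination and 82.1 ± 21.3 CPM in untreated libraries (0.70 ± 0.20, adjusted p = 0.0427). Il6 itself averaged 0.189 CPM in combination and 0.117 CPM in untreated libraries, near the 0.0786 to 0.102 CPM that 3 counts are worth, so no difference could be read at this depth. Il1b had a log2 fold change of 1.16 (adjusted p = 0.233). The tumour necrosis factor receptors Tnfrsf1a and Tnfrsf1b did not pass: Tnfrsf1a averaged 164 ± 2.81 CPM in combination and 176 ± 2.35 CPM in untreated libraries, and Tnfrsf1b 67.1 ± 6.84 CPM in combination and 29.4 ± 5.29 CPM in untreated libraries (1.19 ± 0.37, adjusted p = 0.0586).

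Of 19 transcription factor and feedback genes, 0 rose in combination over untreated, beside 7.58% of all genes. The hepatocyte factor Hnf4a fell, to 199 ± 20.4 CPM in combination, against 377 ± 46.7 CPM in untreated libraries (-0.92 ± 0.18 on the log2 scale, edgeR adjusted p = 0.0179). Stat3 averaged 213 ± 6.98 CPM in combination and 219 ± 18.0 CPM in untreated libraries (-0.04 ± 0.11, adjusted p = 0.828). Socs3, the feedback inhibitor of STAT3, had -0.44 ± 0.23 (adjusted p = 0.215), Cebpb 0.12 ± 0.25 (adjusted p = 0.769) and Cebpd 0.35 ± 0.39 (adjusted p = 0.568). The kinase gene Jak2, whose product phosphorylates STAT3, averaged 307 ± 12.7 CPM in combination and 303 ± 10.5 CPM in untreated libraries. These are RNA levels and say nothing of the activity of the factors.

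Of the receptors and clearance genes, 14 of 16 could be tested and 3 rose in combination over untreated, beside 7.58% of all genes. The formyl peptide receptor Fpr2, for which serum amyloid A is a reported ligand, had 7.63 ± 2.57 CPM in combination and 0.820 ± 0.251 CPM in untreated libraries (3.21 ± 0.60 on the log2 scale, edgeR adjusted p = 0.0163). Its relative Fpr1 had 3.89 ± 0.842 CPM in combination and 0.502 ± 0.193 CPM in untreated libraries (2.94 ± 0.49, adjusted p = 0.0128). The Toll-like receptor Tlr2 had 11.9 ± 1.07 CPM in combination and 3.15 ± 0.368 CPM in untreated libraries (1.92 ± 0.49, adjusted p = 0.0339). All 3 are expressed by myeloid cells, and macrophage and neutrophil markers also rose in the combination. The part of these cells in the rise of the 3 genes was not tested. The scavenger receptor Lrp1 averaged 1837 ± 29.9 CPM in combination and 1533 ± 233 CPM in untreated libraries. The haem-degrading enzyme gene Hmox1 averaged 159 ± 26.0 CPM in combination and 72.0 ± 17.4 CPM in untreated libraries, and did not pass (1.14 ± 0.36, adjusted p = 0.0581). In mIFNalpha over untreated and in combination over mIFNalpha, 0 genes of the lists other than the cell type markers passed. The shares over all genes were 0% and 0.956%, at which lists this short say little. Among the cell type markers, the neutrophil gene Ltf rose (edgeR adjusted p = 0.0438) and the adipocyte gene Cidec fell (adjusted p = 0.0470) in combination over mIFNalpha.

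The genes most like the mean of the set over the 12 libraries, among 10924 of at least 5 CPM, were Adtrp (r = 0.976), Itih4 (0.971), Plcl2 (0.971), Serpina1c (0.967) and Lrg1 (0.962). For single genes of the set, Sh3bp2 and Ifi204 were nearest to Saa1, with r of 0.959 and 0.958, and also to Saa2. Sp100, Parp10 and Trim30a were nearest to Orm2, with r of 0.970, 0.969 and 0.965. Ifi204, Sp100, Parp10 and Trim30a are known as interferon-induced genes. Ang, Cd302 and Apon were nearest to Hp (0.986, 0.984 and 0.982), Trafd1, Cpb2 and Itih4 to Orm1 (0.980, 0.976 and 0.973), Serpina3n to Lcn2 (0.969), Pacs2 to Saa4 (0.963) and Apobec1 to Apcs (0.960). Ift172, Jchain and Pdxk were nearest to Saa3 (0.974, 0.964 and 0.961). Jchain encodes the joining chain of antibodies and marks plasma cells. It averaged 24.0 CPM in combination, 40.0 CPM in anti-PD-1, 1.92 CPM in mIFNalpha and 1.69 CPM in untreated libraries. Its order of group means was that of Saa3, and of all the set but Saa1 and Orm2.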

How the data were processed

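RNA of 12 libraries was sequenced, 3 per group; per the labels, libraries followed a standard Illumina protocol. The submitters' processing notes name HISAT2 2.1.0, HTSeq, Cufflinks and mm10; the sources used here do not give their roles, the annotation or the strand handling. The authors deposited a table of raw counts per gene and a table of FPKM values per gene, and both were used as deposited. Fold changes come from the counts: genes were filtered (filterByExpr, minimum count 10), scaled by TMM and fitted with edgeR 4.0.16 in R 4.3.3 (robust quasi-likelihood F test) with all 12 libraries in 1 fit, 1 mean per group and Benjamini-Hochberg adjustment over 14330 genes, threshold 0.05. SE is the size of the log2 fold change divided by the square root of F. CPM are counts scaled to the TMM-adjusted library size. Levels between genes and ratios use FPKM.

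Alternatives were RLE scaling, no filter, DESeq2 1.42.0, the groups compared alone, a replicate block, limma 3.58.1 on log2(FPKM + 1) and log2(FPKM + 0.1), and each library left out. The 9 genes, the gene lists and the tests were chosen with earlier results of these data known, and no test is given for anti-PD-1 over untreated, combination over anti-PD-1 or the interaction. Genes named from a list outside the set are those that passed the test, the most abundant by mean CPM, and Il6, Il1b, Socs3, Cebpb, Cebpd, Serpina3k, Crp and Orm3, which were chosen after their values were seen; 1 gene of the transcription factor list is not reported here. Correlations are on log2 CPM (prior count 2), over 12 libraries. Transcripts were aligned pairwise from GENCODE M21, promoter windows are from RefSeq, and the fits were tested on simulated data. With 31317989 to 38536732 counts per library, 3 counts are worth 0.0786 to 0.102 CPM, which covers counting error only.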

Additional observations from a re-analysis of the deposited data

How the results depend on the processing

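In combination over untreated, where 5 of the 9 genes and 1803 of all genes passed, 9 of the 9 passed with only the groups compared (3789 genes), with mIFNalpha replicate 1 and anti-PD-1 replicate 3 left out (4200 genes), and with combination replicate 1 left out too (2756 genes). DESeq2 called 2979 genes, limma on log2(FPKM + 1) 1015 and on log2(FPKM + 0.1) 1086. Leaving out each replicate gave 3 to 5 of the 9, and 33 to 2594 genes. In mIFNalpha over untreated 0 of the 9 passed under every setting run, and the 0 genes became 37 with DESeq2, 5 without the first pair of high libraries, 6 without all 3, and 0 to 3 with each replicate left out. In combination over mIFNalpha, 0 of the 9 and 137 genes passed. The count of the 9 was 1 with RLE scaling, 4 with DESeq2 (1661 genes), 4 with only the groups compared (1132 genes), 4 with limma at either pseudocount, 2 with limma and no filter, 8 without the pair (1305 genes) and 7 without all 3 (302 genes); with each replicate left out it was 0, with 0 to 104 genes.

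The median of anti-PD-1 over untreated, 3.50, was 2.01 without the pair or all 3 and 2.01 to 3.98 with each replicate left out. That of combination over anti-PD-1, -0.23, ranged from -0.75 to 0.90 with each replicate left out. That of the interaction, -1.92, was 0.59 without the pair, 0.082 without all 3 and -2.42 to -0.60 with each replicate left out; it needs all 4 groups, so it could not be fitted on fewer. In mIFNalpha over untreated, leaving out each replicate gave -0.10 to 0.50 for Saa3 (negative without untreated replicate 2 or 3), and -0.062 to 0.81 for Saa4, -0.34 to 0.64 for Lcn2 and -0.40 to 1.92 for Apcs (negative without mIFNalpha replicate 1). Saa4, Lcn2 and Apcs were -0.029, -0.30 and -0.36 without the pair and without all 3. The cause of these changes was not tested. Orm1 lost its call in combination over untreated with no filter (adjusted p = 0.0593); Saa1, Saa2 and Orm2 kept theirs in every setting run.

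The values did not settle whether replicate numbers pair the libraries. The correlation of same-numbered deviations between groups ranged from -0.304 to 0.503, with 8 of 18 pairs over 0.1. Of the 12 libraries, 7 correlated best with a library of their own number. With the replicate block, 5 of the 9 and 2174 genes passed in combination over untreated, and 2 of the 9 and 542 genes in combination over mIFNalpha. With 3 libraries a group, and in 3 groups 1 far from the others for most of the 9 genes, the spread between libraries, not depth, limits most values. Depth limits Il6.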
